A study of Mus musculus with 6 samples.

Results

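CXC chemokines are small secreted proteins that steer leukocytes along concentration gradients. In mice, Cxcl1, Cxcl2, Cxcl3 and Cxcl5 draw neutrophils through the receptor Cxcr2, and Cxcl15 draws neutrophils too. The interferon-induced Cxcl9 and Cxcl10 instead draw activated T cells through Cxcr3. Macrophages of the airspaces make neutrophil chemokines within hours of bacterial contact, and the epithelium contributes others. The genes described here were the 10 of 25206 measured genes whose symbol matched Cxcl1, Cxcl2, Cxcl3, Cxcl5, Cxcl9, Cxcl10, Cxcl14, Cxcl15, Cxcl16 or Pf4, the last encoding platelet factor 4 (Cxcl4), and all 10 were matched to 1 row each. No filter on signal was applied, so every member was tested.

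Alveolar macrophages were washed from the lungs of Zcchc6+/+ mice and of Zcchc6-/- mice with ice-cold PBS, and each genotype had 3 arrays. The labels name no infection or other treatment. Zcchc6 encodes a terminal uridyltransferase, an enzyme that adds uridines to the 3′ ends of RNA. The Zcchc6-/- mice descend from animals with loxP sites around critical exons of Zcchc6, in which an EIIa-cre transgene, active in the germline, deleted the exons. The transgene was then bred out, and heterozygotes were crossed to obtain Zcchc6-/- animals, which therefore carry the deletion in every cell. The study used mice of both sexes at 8 to 16 weeks of age. The labels give replicate numbers but do not say that each array is a separate mouse, so the p-values describe the spread between these arrays, part of which may be technical. No sorting step after lavage is described, and in RNA from mixed cells fewer cells of a type cannot be told apart from less RNA per cell.

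Zcchc6 was at 8.65 to 8.77 in Zcchc6+/+ arrays and at 7.69 to 8.22 in Zcchc6-/- arrays, or 61.6% of the wildtype signal (limma, adjusted p = 0.774), and where its probes lie relative to the deleted exons was not examined. The arrays had medians of 4.36 to 4.45. Alveolar macrophage markers were high throughout, with Siglecf at 11.18 to 11.29 while the mean over 19 markers was 10.56 to 10.60 in Zcchc6+/+ and 10.37 to 10.53 in Zcchc6-/- arrays. Of these markers 15 had a lower mean in Zcchc6-/- macrophages, among them Fabp4, a fatty acid binding protein (log2 fold change -1.17), and Marco, a scavenger receptor, had 0.43. Markers of T cells stood apart in Zcchc6-/- replicate 1, where 16 of them averaged 6.85, against 3.92 to 4.52 in the other arrays. Xist was low in Zcchc6+/+ replicate 1 (3.78) and Zcchc6-/- replicate 2 (3.27) and at 10.04 or above in the rest. Ddx3y, a gene of the Y chromosome, read 6.59 and 6.87 in these arrays and 2.28 to 2.96 in the rest. By these values both arrays were of male mice. Over all genes, 0% passed an adjusted p of 0.05 in limma, 5.03% had an unadjusted p under 0.05, and the genotypes did not overlap in 10.2%.

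The promoters of the neutrophil chemokines Cxcl1, Cxcl2 and Cxcl3 carry the same 10 letters of the kind bound by NF-kB, the transcription factor that drives inflammatory genes. They are shown because these genes lie in the same cluster and share a receptor. That of Cxcl10 is shown as an example of the interferon-induced members. Each line gives 30 bases on the gene's strand, 5′ to 3′, with the letters GGGAATTTCC in capitals.
Cxcl1: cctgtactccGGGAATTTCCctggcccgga
Cxcl2: cctgagctcaGGGAATTTCCctggtccccg
Cxcl3: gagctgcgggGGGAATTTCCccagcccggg
Cxcl10: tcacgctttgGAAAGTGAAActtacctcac
In Cxcl10 the capitals mark GAAAGTGAAA, a match to GAAANNGAAA, the form of the interferon-stimulated response element.

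The windows lie at chr5:90891164-90891193 (Cxcl1), chr5:90903792-90903821 (Cxcl2) and chr5:90786018-90786047 (Cxcl3), on the plus strand, and at chr5:92349083-92349112 (Cxcl10), on the minus strand, in GRCm38.p6 as RefSeq gives them. The capitals begin 71, 97, 73 and 213 bases before the annotated start of transcription. GGGAATTTCC is the 1 run of the general form GGGNNNNNCC that these 3 promoters share on the gene's strand. On the opposite strand, offset by 1 base, they also share GGGAAATTCC, which the Cxcl10 promoter holds too, 159 bases before its start. GGGAATTTCC was sought on both strands in 300 bases of promoter, 250 before the start and 50 after it, and was present in 29 of 32851 such windows, or 0.0883%. These letters were taken from Cxcl1, Cxcl2 and Cxcl3, which are among the 29, so their presence there was fixed in advance. The general form was present in 50.8% of the windows, and among the members also in Cxcl9 and Cxcl10. GAAANNGAAA was present in 3.44% of the windows, and among the members in Cxcl10 and Cxcl14. Another pattern, TTCNNNGAA, the form of the gamma-activated sequence, was present in 8.3% of the windows and among the members in Cxcl14 alone. Of the 8 members with a window, Cxcl15 and Pf4 had none of these patterns in it. Matches of the general form on the opposite strand overlap the capitals of Cxcl1, Cxcl2 and Cxcl3, and no other pattern overlaps those shown. In the same assembly Cxcl5, Ppbp, Pf4, Cxcl3, Cxcl15, Cxcl1 and Cxcl2 follow each other with no other protein-coding gene between them. Cxcl9 and Cxcl10 are separated only by Art3.

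To judge which chemokine signals lay above the level of genes with no transcript expected, the 1082 olfactory receptor genes were used as a guide. Their mean log2 values had a median of 2.20 and a 95th percentile of 4.34. The means of 5 members, Cxcl1, Cxcl2, Cxcl5, Cxcl15 and Pf4, lay under that percentile in both genotypes, and those of Cxcl9, Cxcl10, Cxcl14 and Cxcl16 lay above it in both. Cxcl3 lay above it in Zcchc6+/+ macrophages alone. Probe sets differ between genes, so the values of different members are not ranked against each other, and a change in a gene close to this range is understated by RMA.

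**Figure D1:**
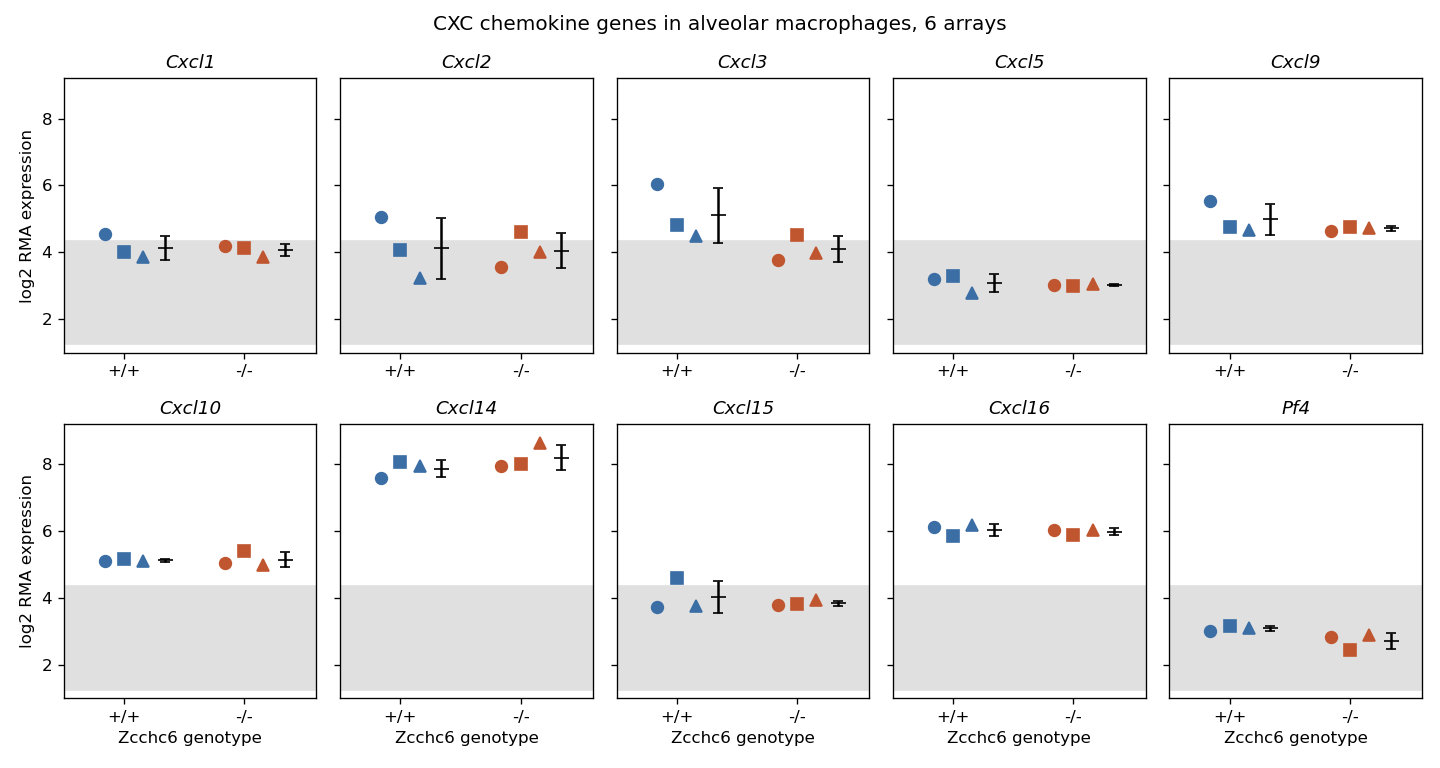
Log2 RMA expression (y axis) of the 10 CXC chemokine genes by Zcchc6 genotype (x axis), with circles, squares and triangles for replicates 1, 2 and 3 and black bars for the mean ± SD (n = 3). The grey band runs from the 5th to the 95th percentile of 1082 olfactory receptor genes (1.25 to 4.34), and all 6 points of Cxcl9, Cxcl10, Cxcl14 and Cxcl16 lie above it.

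No member differed between the genotypes past the threshold. Of the 10 genes, 8 had a lower mean in Zcchc6-/- macrophages, as had 51.8% of all genes, and the median log2 fold change was -0.070, against -0.0063 over all genes. An unadjusted p under 0.05 was reached by 2 members, Cxcl3 and Pf4, both lower, where 2.53% of all genes did so in that direction and 2.5% in the other. The genotypes did not overlap in 1 member, Pf4, where 5.15% of all genes separated in that direction.

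**Figure D2:**
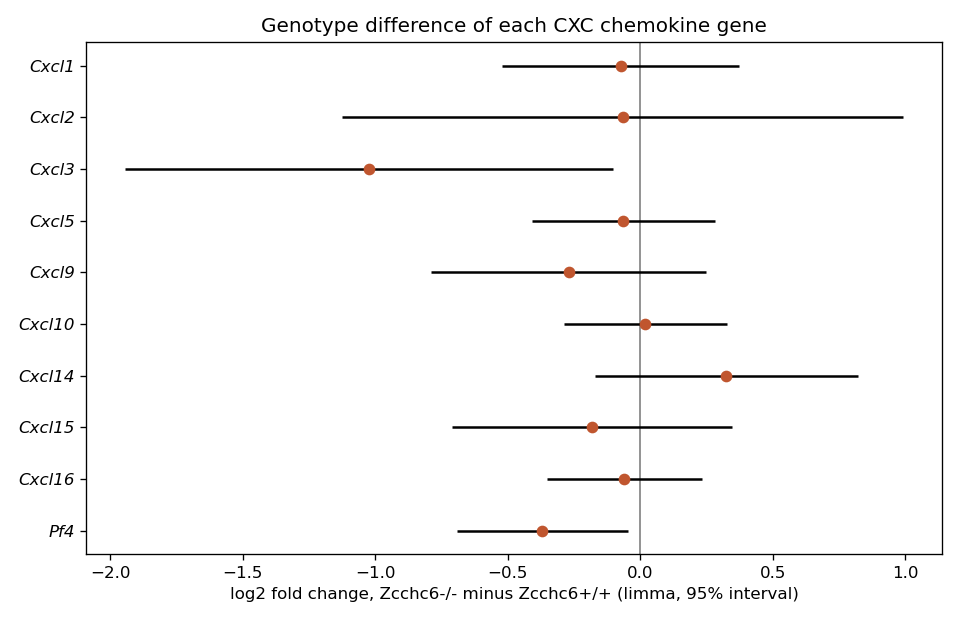
Log2 fold change of each CXC chemokine gene, Zcchc6-/- minus Zcchc6+/+ (x axis; 3 arrays per genotype), with points for the estimate and lines for the 95% interval from limma. The intervals of Cxcl3 (-1.94 to -0.10) and Pf4 (-0.69 to -0.048) exclude 0 before adjustment, and the smallest adjusted p is 0.973.

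Cxcl3, a neutrophil chemokine closely related to Cxcl1 and Cxcl2, had the largest difference among the members. Its log2 expression was 6.04, 4.81 and 4.48 in Zcchc6+/+ arrays, against 3.77, 4.52 and 3.98 in Zcchc6-/- arrays. The genotypes overlapped by a small margin, since Zcchc6-/- replicate 2 read above Zcchc6+/+ replicate 3. The means were 5.11 ± 0.82 and 4.09 ± 0.39 (SD, n = 3 each), a log2 fold change of -1.02 (standard error, SE, 0.39, 95% interval -1.94 to -0.10, limma, adjusted p = 0.981), or 2.03-fold lower. Zcchc6+/+ replicate 1 held the highest value, and without that array the log2 fold change was -0.56 (limma, adjusted p = 0.999).

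Cxcl2, also known as MIP-2, varied most between replicates. It read 5.06, 4.06 and 3.24 in the Zcchc6+/+ arrays, a 3.51-fold span, and 3.55, 4.61 and 4.00 in the Zcchc6-/- arrays. The genotypes overlapped almost wholly, with a log2 fold change of -0.066 (SE 0.45, limma, adjusted p = 0.999). The 95% interval ran from -1.12 to 0.99, that is 0.459 to 1.99 of the wildtype level. Leaving out Zcchc6+/+ replicate 1 turned the log2 fold change to 0.40, and leaving out Zcchc6-/- replicate 1 to 0.19.

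Cxcl1, the chemokine also called KC, read 4.55, 4.02 and 3.85 in Zcchc6+/+ arrays, against 4.20, 4.13 and 3.87 in Zcchc6-/- arrays. All Zcchc6-/- values lay within the wildtype range, and the log2 fold change was -0.074 (SE 0.19, 95% interval -0.52 to 0.37, limma, adjusted p = 0.998). It turned to 0.13 without Zcchc6+/+ replicate 1 and to 0.023 without Zcchc6-/- replicate 3. Cxcl5 (LIX), which alveolar epithelial cells make in the infected lung, stayed near the floor, at 3.21, 3.29 and 2.78 in Zcchc6+/+ arrays, against 3.03, 2.99 and 3.07 in Zcchc6-/- arrays. Its log2 fold change was -0.064 (SE 0.15, limma, adjusted p = 0.998). Without Zcchc6+/+ replicate 2 it was 0.032.

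Cxcl15 (lungkine), a neutrophil chemokine of the airway and alveolar epithelium, read 3.74, 4.58 and 3.75 in Zcchc6+/+ arrays, against 3.78, 3.81 and 3.92 in Zcchc6-/- arrays. Only Zcchc6+/+ replicate 2 lay above the 95th percentile of the olfactory receptor genes. The mean of 14 alveolar epithelial markers was also highest in that array, at 5.29 against 4.87 and 4.99 in the other Zcchc6+/+ arrays and 4.97 to 5.18 in Zcchc6-/- arrays, with the surfactant gene Sftpc at 6.83 and the lung epithelial factor Nkx2-1 at 4.64. That list mean and Cxcl15 correlated at r = 0.779 over 6 arrays that share the 2 genotypes. The mean of 13 airway epithelial markers was instead highest in Zcchc6-/- replicates 2 (6.83) and 1 (6.70), against 6.58 in Zcchc6+/+ replicate 2, and correlated with Cxcl15 at r = 0.278. The mean of 12 fibroblast and smooth muscle markers correlated with Cxcl15 at r = 0.790. It too was highest in Zcchc6+/+ replicate 2, at 4.37 against 3.96 to 4.23 in the other arrays. That 1 array carries most of the range of Cxcl15, so these values do not single out a cell type. The part of epithelial or other RNA in the Cxcl15 signal was not tested. The log2 fold change of Cxcl15 was -0.18 (SE 0.23, limma, adjusted p = 0.998), and it was 0.097 without Zcchc6+/+ replicate 2.

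Cxcl9, a ligand of Cxcr3 that interferon-gamma induces, followed Cxcl3 from array to array. It read 5.53, 4.76 and 4.66 in Zcchc6+/+ arrays, against 4.64, 4.76 and 4.74 in Zcchc6-/- arrays, so that a single wildtype array stood above 5 others lying between 4.64 and 4.76. The log2 fold change was -0.27 (SE 0.22, 95% interval -0.79 to 0.25, limma, adjusted p = 0.997) and was 0.0037 without Zcchc6+/+ replicate 1. Cxcl10 (IP-10), induced by both classes of interferon and by NF-kB, had a smaller spread in Zcchc6+/+ macrophages (SD 0.040 against 0.48 for Cxcl9) and a larger one in Zcchc6-/- macrophages (0.23 against 0.062). It read 5.09, 5.16 and 5.09 in Zcchc6+/+ arrays, against 5.03, 5.39 and 4.98 in Zcchc6-/- arrays, with a log2 fold change of 0.020 (SE 0.13, 95% interval -0.29 to 0.33, limma, adjusted p = 0.999). Its highest value was in Zcchc6-/- replicate 2, and without that array the log2 fold change was -0.11.

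Cxcl14 (BRAK), a chemokine that epithelia express constitutively, read 7.58, 8.07 and 7.93 in Zcchc6+/+ arrays, against 7.94, 7.99 and 8.62 in Zcchc6-/- arrays. The genotypes overlapped, and 1 array, Zcchc6-/- replicate 3, lay above the rest. The means were 7.86 ± 0.25 and 8.18 ± 0.38 (SD, n = 3 each), with a log2 fold change of 0.33 (SE 0.21, 95% interval -0.17 to 0.82, limma, adjusted p = 0.997). Without Zcchc6-/- replicate 3 it was 0.11, and without Zcchc6+/+ replicate 1 it was 0.19. The mean over 8 pan-epithelial markers was 6.12 in that array and 5.91 to 6.19 in the others. Of these markers Cdh1 (8.56), Krt8 (5.84) and Krt18 (5.06) were highest in Zcchc6-/- replicate 3, and the other 5 were highest elsewhere. Over the 6 arrays the mean of the 8 pan-epithelial markers correlated with Cxcl14 at r = 0.377. The mean of 14 neutrophil markers did so at r = 0.819, and that of 12 markers of interstitial macrophages and monocytes at r = 0.772. The part of epithelial or other RNA in the Cxcl14 values was not tested.

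Cxcl16, a transmembrane chemokine and scavenger receptor of macrophages that binds Cxcr6, was the steadiest member. Its values were 6.11, 5.83 and 6.16 in Zcchc6+/+ arrays, against 6.03, 5.87 and 6.03 in Zcchc6-/- arrays, and every Zcchc6-/- value lay within the wildtype range. The log2 fold change was -0.060 (SE 0.12), with a 95% interval of -0.35 to 0.23, that is 0.784 to 1.17 of the wildtype level (limma, adjusted p = 0.998). Without Zcchc6+/+ replicate 3 it was 0.0042. Adam10 and Adam17, the proteases that shed its ectodomain, had log2 fold changes of -0.13 and 0.13 (limma, adjusted p = 0.998 each).

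Pf4, stored in platelet granules and also made by some macrophages, was the only member with separate genotypes. It read 3.01, 3.15 and 3.08 in Zcchc6+/+ arrays, against 2.81, 2.44 and 2.88 in Zcchc6-/- arrays, all within the range of the olfactory receptor genes. The log2 fold change was -0.37 (SE 0.14, 95% interval -0.69 to -0.048, limma, adjusted p = 0.973). An exact two-sided permutation test of 3 arrays against 3 gave p = 0.1, the smallest it can give. Any gene with separate genotypes gets this value, so it adds nothing to the separation. Without Zcchc6-/- replicate 2 the log2 fold change was -0.24. Among 14 platelet and megakaryocyte markers, 7 had a lower and 7 a higher mean, with list means of 3.94 to 4.12 in Zcchc6+/+ and 3.81 to 3.98 in Zcchc6-/- arrays. Ppbp, the platelet chemokine gene beside Pf4, stood at 2.59 to 2.98 and 2.60 to 3.13, and the platelet receptor genes Itga2b and Gp9 had log2 fold changes of -0.058 and -0.082. Nrgn was higher in all Zcchc6-/- arrays, at 2.93 to 3.38 against 2.64 to 2.79 (log2 fold change 0.44, limma, adjusted p = 0.902), and Gp6, the platelet collagen receptor, had -0.50 with overlapping genotypes, both within the range of the olfactory receptor genes. Clec1b, the platelet receptor CLEC-2, read 6.61, 5.96 and 6.10 against 5.00, 4.42 and 5.13 (log2 fold change -1.37, SE 0.23, limma, adjusted p = 0.610). The platelet list mean includes Clec1b, whose values spanned 2.19 on the log2 scale, while 9 of the 14 markers lay within the range of the olfactory receptor genes. Over the 6 arrays Pf4 correlated at r = 0.80 with the platelet list mean and at r = 0.735 with that of the alveolar macrophage list. The part of either cell type in the Pf4 difference was not tested.

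**Figure D3:**
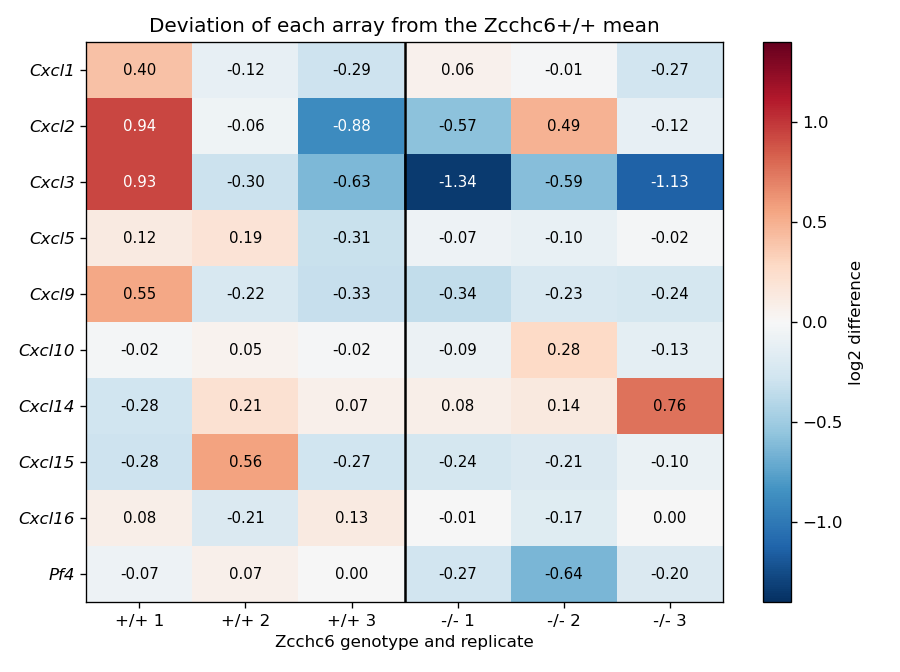
Deviation of each array (x axis, by Zcchc6 genotype and replicate) from the Zcchc6+/+ mean of the gene, on the log2 scale, for the 10 CXC chemokine genes (y axis). Colour runs from blue (lower) to red (higher), and Zcchc6+/+ replicate 1 is highest for Cxcl1, Cxcl2, Cxcl3 and Cxcl9.

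The spread between replicates was uneven across the family. Within genotypes the pooled SD was 0.74 for Cxcl2 and 0.64 for Cxcl3, higher than in 99.2% and 98.7% of all genes, whose median was 0.17. It was 0.28 for Cxcl1, 0.34 for Cxcl9 and 0.14 for Cxcl16. Zcchc6+/+ replicate 1 held the highest value of 4 members, Cxcl1, Cxcl2, Cxcl3 and Cxcl9, whereas it was the highest array for 13.5% of all genes. Among the Zcchc6-/- arrays, replicate 2 was highest for Cxcl2 (4.61), Cxcl3 (4.52) and, narrowly, Cxcl9 (4.76 against 4.74), but not for Cxcl1. Both arrays are those with low Xist and high Ddx3y. With Xist as a covariate the log2 fold change of Cxcl3 was -1.02 (limma, adjusted p = 0.766, unadjusted p = 0.0023 against 0.034 without it). In the same fit the unadjusted p from limma was 0.83 for Cxcl2, 0.68 for Cxcl1 and 0.19 for Cxcl9. That fit tests the genotype difference with Xist held fixed, and the part of sex in this spread was itself not tested. Over the 6 arrays Cxcl3 correlated with Cxcl9 at r = 0.909 (Spearman's rho 0.943) and with Cxcl2 at r = 0.729 (0.771). Cxcl1 correlated with Cxcl2 at r = 0.732 (0.657) and with Cxcl9 at r = 0.832, although the rank correlation of that pair was 0.371. For Cxcl1 and Cxcl3 r was 0.693 (0.314). Cxcl10 had an r of 0.186 (0.543) with Cxcl3 and -0.040 (0.371) with Cxcl9. These are descriptions of 6 points, of which 1 array carries much of the range. Cxcl1, Cxcl2 and Cxcl3 are related in sequence, and how far the probes separate them was not examined.

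**Figure D4:**
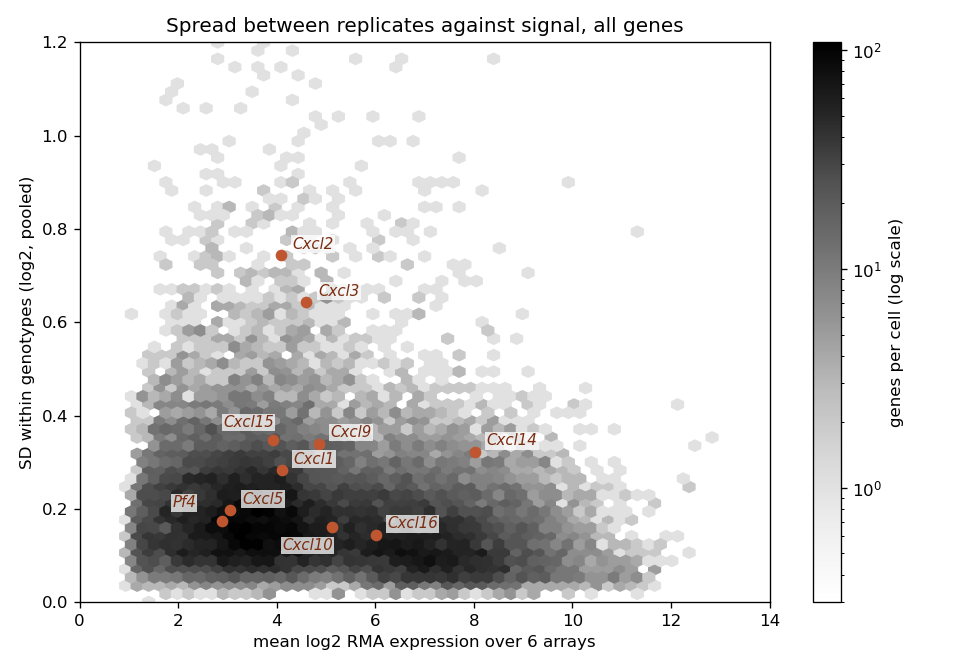
Pooled SD within genotypes (y axis, log2) against mean log2 RMA expression over 6 arrays (x axis) for all genes, as shaded hexagons on a log scale of gene number, with the 10 CXC chemokine genes as points. Cxcl2 (0.74) and Cxcl3 (0.64) lie in the sparse region above most genes, Cxcl10, Cxcl16, Cxcl5 and Pf4 within the main body, and the 57 genes with an SD over 1.2 are outside the plot.

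Other inflammatory genes were set beside the neutrophil chemokines. Of 20 genes that respond to NF-kB, 13 had a higher and 7 a lower mean in Zcchc6-/- macrophages, 0 passed over all genes in limma (0 had an unadjusted p under 0.05), and the median log2 fold change was 0.019. Tnf read 8.63, 8.23 and 7.74 in Zcchc6+/+ arrays, against 8.22, 8.13 and 8.70 in Zcchc6-/- arrays. Like Cxcl2 it was highest in replicate 1 and lowest in replicate 3 among the Zcchc6+/+ arrays, but its highest value of all was in Zcchc6-/- replicate 3. Il6 stayed at 1.52 to 1.85 in all 6 arrays, below the median of the olfactory receptor genes. The NF-kB list mean was 6.72 in Zcchc6+/+ replicate 1 and 6.72 in Zcchc6-/- replicate 3, against 6.56 to 6.69 in the other arrays. Over the 6 arrays it correlated at r = 0.824 with Cxcl2, 0.394 with Cxcl3 and 0.339 with Cxcl1. The genes named for the smallest p, Il1b, Ccl3 and Nfkbiz, had log2 fold changes of 0.32, 0.20 and 0.13 (limma, adjusted p = 0.997 each).

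Genes induced by interferon-gamma, as Cxcl9 is, were set beside it. Of 18 such genes, 13 had a lower mean in Zcchc6-/- macrophages, and the median log2 fold change was -0.051. The genotypes did not overlap in 2, both lower, where 5.15% of all genes separated in that direction. In limma 0 passed and 2 had an unadjusted p under 0.05, both lower, where 2.53% of all genes did so in that direction. Gbp5, a guanylate-binding GTPase within the range of the olfactory receptor genes, read 4.15, 4.35 and 4.14 in Zcchc6+/+ arrays, against 3.66, 3.68 and 3.75 in Zcchc6-/- arrays, a log2 fold change of -0.51 (SE 0.11, limma, adjusted p = 0.720). Gbp2, of the same family, read 6.73, 6.68 and 6.91 against 6.26, 6.49 and 6.30, with a log2 fold change of -0.42 (SE 0.12, limma, adjusted p = 0.876). With each array left out in turn the log2 fold change of Gbp5 ranged from -0.55 to -0.45 and that of Gbp2 from -0.49 to -0.35. Both were named for a small p on this list, so a narrow range adds little. Ciita, the activator of MHC class II genes, had -0.49 (limma, adjusted p = 0.997).

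The receptors were measured alongside their ligands. Cxcr2, the receptor of Cxcl1, Cxcl2, Cxcl3 and Cxcl5, read 5.94, 5.68 and 5.67 in Zcchc6+/+ arrays, against 6.05, 7.49 and 7.01 in Zcchc6-/- arrays. All Zcchc6-/- values were above all wildtype values, where 5.03% of all genes separated in that direction, with a log2 fold change of 1.09 (SE 0.33, limma, adjusted p = 0.902). Leaving out Zcchc6-/- replicate 2 gave 0.77, and leaving out Zcchc6-/- replicate 1 gave 1.49. Cxcr1 had a log2 fold change of 0.078, Cxcr4, the receptor of Cxcl12, 0.011 and the scavenging receptor Ackr3 -0.31. Cxcr3, the receptor of Cxcl9 and Cxcl10, read 3.99 to 4.02 in Zcchc6+/+ and 3.57 to 4.18 in Zcchc6-/- arrays, and Cxcr5, Cxcr6 and Ackr1 also lay within the range of the olfactory receptor genes.

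Cxcr2 also marks neutrophils, whose list was therefore set beside it. Of 14 neutrophil markers, Cxcr2 itself among them, 9 had a higher and 5 a lower mean, and 0 passed in limma. An unadjusted p under 0.05 was reached by 3 higher (Cxcr2, Csf3r and Lcn2) and 1 lower (Mmp8). Over all genes 2.5% and 2.53% did so in those directions. The list means, which include Cxcr2, were 4.25 to 4.37 in Zcchc6+/+ and 4.33 to 4.59 in Zcchc6-/- arrays. The G-CSF receptor gene Csf3r was highest in the same arrays as Cxcr2, at 7.30, 7.39 and 6.99 against 7.37, 8.19 and 7.99, with a log2 fold change of 0.63 (limma, adjusted p = 0.968). Lcn2, which encodes a siderophore-binding protein of neutrophils, macrophages and epithelium, had 0.70 (limma, adjusted p = 0.784). Ly6g, the defining marker of mouse neutrophils, stayed at 2.00 to 2.63 in all 6 arrays. S100a8 and S100a9, also within the range of the olfactory receptor genes, had log2 fold changes of -0.24 and 0.25. Of the 14 markers 8 lay within that range. Mmp8, the neutrophil collagenase, read 7.51, 8.12 and 8.57 against 7.27, 7.51 and 7.53 (log2 fold change -0.63, limma, adjusted p = 0.981). The part of neutrophil RNA in the Cxcr2 values was not tested.

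**Figure D5:**
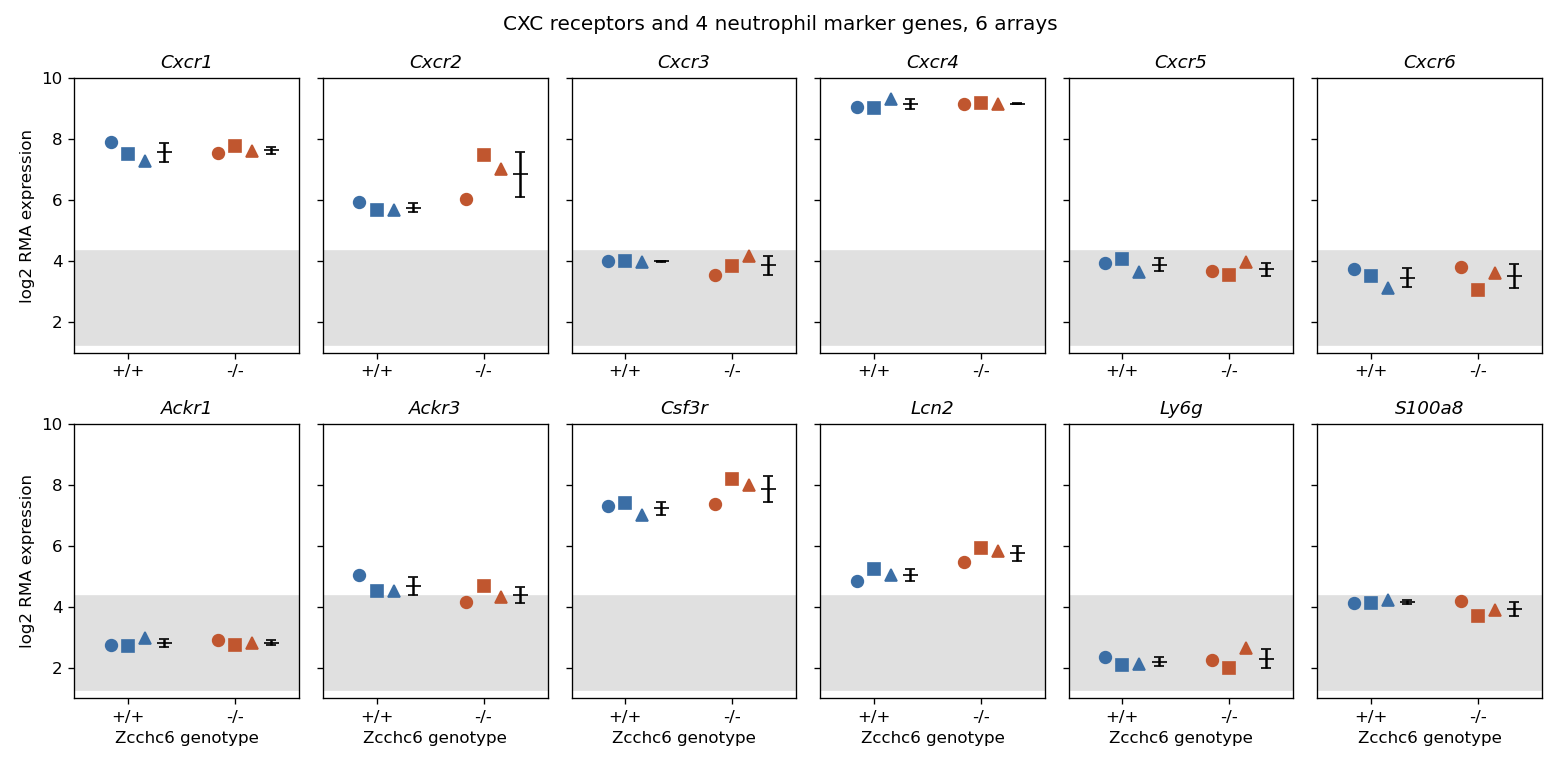
Log2 RMA expression (y axis) of 8 CXC receptor genes and 4 neutrophil marker genes by Zcchc6 genotype (x axis), with circles, squares and triangles for replicates 1, 2 and 3, black bars for the mean ± SD (n = 3) and the grey band of olfactory receptor genes (1.25 to 4.34). Cxcr2 and Csf3r are highest in Zcchc6-/- replicates 2 and 3, whereas Ly6g lies within the band in every array.

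Other CXC ligands and their relatives numbered 7, of which 0 passed in limma (0 had an unadjusted p under 0.05). Cxcl11, Cxcl13, Ppbp and Xcl1 lay within the range of the olfactory receptor genes, and Cxcl12 was at its edge, at 4.36 ± 0.19 in Zcchc6+/+ and 4.38 ± 0.24 in Zcchc6-/- macrophages (SD, n = 3 each). Cxcl17, a mucosal chemokine, had a log2 fold change of 0.21 and Cx3cl1 (fractalkine) one of -0.22 (limma, adjusted p = 0.997 each). Cx3cr1, the receptor of Cx3cl1, had 0.26 with separate genotypes (limma, adjusted p = 0.981).

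For each member outside the range of the olfactory receptor genes, the genes most like it were sought among 12647 named genes by Pearson's r over the 6 arrays. Cxcl9 was most like Tnfaip3, an inhibitor of NF-kB signalling, at r = 0.991 and Vcl (vinculin) at 0.990. Cxcl3 was most like Crybb1 (0.993) and Krtap5-2 (0.987), Cxcl10 like Lama5 (0.991) and Lrrc51 (0.986), and Cxcl14 like Srcin1 (0.990) and Gm9958 (0.988). Cxcl16 had the least close neighbours, Gm7040 at 0.966 and Surf2 at 0.953. These values are the highest of 12647 over 6 arrays, where high r arises easily, and they show no relation between the genes.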

How the data were processed

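Total RNA from lavaged alveolar macrophages was hybridized to Affymetrix GeneChip Mouse Gene ST arrays, 3 of Zcchc6+/+ and 3 of Zcchc6-/- mice. The authors made the deposited log2 values with RMA in affy 1.36.1 under R 2.15.1 and a Brainarray probe set mapping by Entrez Gene, which gives 1 value per gene and array after background correction and quantile normalization. RMA takes out shifts shared by a whole array and compresses changes near the floor. The sources used here do not name the genome build of that mapping, and the table holds no detection calls. RefSeq (GRCm38.p6) supplied symbols for 23740 of 25206 genes, neighbouring genes and promoter windows. Olfactory receptor genes (1082) served as a guide to signal without transcript. Genotypes were compared in limma 3.58.1 (R 4.3.3; lmFit and eBayes, no covariate or filter) with Benjamini-Hochberg adjustment over all genes at 0.05. The procedure was run on simulated data with independent normal noise. There 94 of 100 genes changed by 1 on the log2 scale and 99 of 100 changed by 2 passed, with 12 false calls. No simulated array stood apart from the rest, so these shares do not give the power in the real arrays.

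The 10 members and the companion gene lists were chosen with earlier results of these data known. All members were named, as were all CXC receptors and the related ligands. From each further list the 3 genes with the smallest p and a few defining markers could be named, and those printed are a selection of them. Other genes named for a value were chosen after it was seen: Nkx2-1, S100a8, S100a9, Mmp8, Krt8, Krt18, Tnf, Il6 and Olfr43. The letters of the promoter motifs were chosen with the sequences in view. Alternatives were a filter on low signal, other variance models, array weights, a second quantile normalization, median centring, a replicate block, Xist as a covariate and leaving out each array.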

Additional observations from a re-analysis of the deposited data

How the results depend on the processing

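No member passed the threshold under any of the alternatives run, and the smallest adjusted p among them was 0.652, for Cxcl3 with array weights in limma. The count over all genes was 0 under every alternative except without Zcchc6-/- replicate 1, where 1 gene passed (Olfr43, adjusted p = 0.0104 from limma), so leaving out 1 array gave 0 to 1. Members with separate genotypes numbered 0 with only genes above the median level, which drops Pf4, and 1 to 4 with 1 array left out. The count was highest without Zcchc6+/+ replicate 2 or 3 (4 members, where 17.6% and 18.9% of all genes separated) and was 3 without Zcchc6-/- replicate 2 (22.1%), since fewer arrays separate more easily. Cxcl3, Cxcl14 and Pf4 kept their direction throughout. With 1 array left out the log2 fold changes ranged from -0.22 to 0.13 for Cxcl1, -0.50 to 0.40 for Cxcl2, -1.34 to -0.56 for Cxcl3, -0.22 to 0.032 for Cxcl5, -0.43 to 0.0037 for Cxcl9, -0.11 to 0.096 for Cxcl10, 0.11 to 0.45 for Cxcl14, -0.32 to 0.097 for Cxcl15, -0.16 to 0.0042 for Cxcl16 and -0.46 to -0.24 for Pf4. With array weights Cxcl10 turned to -0.034 and Cxcl14 was 0.52. The weights were 0.446, 0.638 and 1.71 for Zcchc6-/- replicates 1, 2 and 3, so replicate 3 counted most in that genotype. It held the highest Cxcl14 value (8.62) and the lowest Cxcl10 value (4.98) of all arrays. Same-numbered arrays did not deviate together (correlations of 0.090, -0.23 and 0.046). Such values cannot exclude that the numbers pair the samples, because a weak shared effect could be missed. With a replicate block 0 genes and 0 members passed, and the log2 fold change of Cxcl3 was -1.02 (adjusted p = 1.00 from limma). With 3 arrays per genotype the 95% interval of a typical gene was ± 0.32 on the log2 scale. It was wider for Cxcl1, Cxcl2, Cxcl3, Cxcl5, Cxcl9, Cxcl14 and Cxcl15, most of all for Cxcl2 and Cxcl3.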

Other observations

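No listed gene that acts on chemokine mRNA after transcription passed the threshold. Of 12 regulators of the decay and stability of such mRNAs, 9 had a higher and 3 a lower mean in Zcchc6-/- macrophages. The median log2 fold change was 0.031, and 0 passed over all genes in limma. An unadjusted p under 0.05 was reached by 1, higher, where 2.5% of all genes did so in that direction. Zfp36 (tristetraprolin), which binds AU-rich elements, read 9.83, 9.89 and 9.58 in Zcchc6+/+ arrays, against 9.78, 9.53 and 9.59 in Zcchc6-/- arrays (log2 fold change -0.14). Traf3ip2, an adaptor of IL-17 signalling, had a log2 fold change of 0.28 (adjusted p = 0.981 from limma), with all values within the range of the olfactory receptor genes.

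Among 15 genes induced by type I interferon, which also induces Cxcl10, 7 had a higher and 8 a lower mean, and 0 passed in limma. An unadjusted p under 0.05 was reached by 1 higher and 1 lower gene, where 5.03% of all genes did so in either direction. Usp18, a negative regulator of the interferon receptor, read 4.08, 4.17 and 3.97 in Zcchc6+/+ arrays, against 4.89, 4.40 and 4.34 in Zcchc6-/- arrays (log2 fold change 0.47, adjusted p = 0.951 from limma). Oasl1, which restrains translation of Irf7, differed in the other direction, with a log2 fold change of -0.30 (adjusted p = 0.973 from limma), and Irf7 itself had 0.20 (adjusted p = 0.997). The genotypes did not overlap in 5 of the 15 genes, 4 higher and 1 lower, where 5.03% and 5.15% of all genes separated in those directions.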
